A study of Homo sapiens with 12 samples.

Results

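SPRR1A and SPRR1B are a pair of closely related genes of human chromosome 1 that encode small proline-rich proteins, precursors of the cornified envelope. They were followed as the 2 probe sets annotated to them (16671104 for SPRR1A and 16671115 for SPRR1B) among 53617 probe sets and 14884 named genes. The pair was chosen by its fall in A431 cells with everolimus against DMSO, so the values of that contrast are given as a description, with no test. RNA was measured on 12 Affymetrix arrays in 4 groups of 3: HSC-1 cells with 100 nM everolimus, HSC-1 cells with the vehicle DMSO, A431 cells with 100 nM everolimus and A431 cells with DMSO, all for 72 h. HSC-1 and A431 are established lines grown from human squamous carcinomas of the skin, so each group stands for 1 line. Everolimus, a rapamycin analogue, inhibits mTOR complex 1, a kinase complex that couples nutrient and growth factor signals to protein synthesis and growth. The labels give medium with 10 or 20% serum without tying either to a line. Whether replicate arrays had cultures of their own is not said, and the p-values therefore rest on a spread that may be technical.

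The cornified envelope is the layer of cross-linked protein that replaces the plasma membrane of a keratinocyte at the end of its differentiation. Transglutaminases join small proline-rich proteins, involucrin, loricrin and others at glutamine and lysine residues, and the small proline-rich proteins act as bridges between the larger precursors. SPRR1A and SPRR1B lie in the epidermal differentiation complex, a gene cluster that also holds the other SPRR genes, involucrin, loricrin, filaggrin, the late cornified envelope genes and the S100 genes. In stratified epithelia both genes are known for induction in suprabasal cells and in squamous metaplasia, and AP-1 and ETS family factors are known to act on their promoters.

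The regions before both start sites are shown because the members moved together, with that of SPRR3, which lies between them, for comparison. Each is the 250 bases upstream of the RefSeq gene start in GRCh38.p14, plus strand, written 5′ to 3′. Capitals mark the AP-1 motif TGANTCA.
SPRR1A, chr1:152983831-152984080: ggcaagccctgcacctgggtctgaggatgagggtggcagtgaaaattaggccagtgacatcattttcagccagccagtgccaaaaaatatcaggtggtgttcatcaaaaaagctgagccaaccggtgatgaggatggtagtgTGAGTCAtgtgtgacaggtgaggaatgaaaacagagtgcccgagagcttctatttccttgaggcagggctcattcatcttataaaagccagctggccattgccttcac
SPRR1B, chr1:153030953-153031202: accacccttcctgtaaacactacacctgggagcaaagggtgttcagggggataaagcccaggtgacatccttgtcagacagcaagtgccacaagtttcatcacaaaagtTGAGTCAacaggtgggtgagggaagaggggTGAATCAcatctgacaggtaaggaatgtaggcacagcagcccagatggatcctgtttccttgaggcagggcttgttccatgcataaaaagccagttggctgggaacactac
SPRR3, chr1:153001499-153001748: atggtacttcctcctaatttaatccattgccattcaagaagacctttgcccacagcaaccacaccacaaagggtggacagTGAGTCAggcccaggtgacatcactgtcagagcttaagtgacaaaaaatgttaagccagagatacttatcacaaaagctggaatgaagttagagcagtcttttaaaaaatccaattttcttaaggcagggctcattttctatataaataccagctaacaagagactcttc

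The upstream regions of SPRR1A and SPRR1B were alike in letters. In a global alignment they matched at 65% of columns, against 53.6% for SPRR1A and SPRR3. The longest run shared by SPRR1A and SPRR1B was tttccttgaggcagggct, 18 bases long, which begins 56 bases before the start of SPRR1A and 57 before that of SPRR1B. TGANTCA was searched on both strands and occurred once upstream of SPRR1A, at positions -108 to -102 from the start, and at 2 places upstream of SPRR1B, at -141 to -135 and -111 to -105. The motif was present in 6.57% of 35116 RefSeq regions of the same length, and at 2 or more places in 0.402% of them. Of the 9 SPRR genes with a sequence in the table, 6 held the motif, among them SPRR3, SPRR2A, SPRR2F and SPRR2G. TATAAA lay 29 bases before the start of SPRR1A and was not in the SPRR1B window, and it occurred in 10.7% of all regions. The ETS core AGGAA, with its reverse complement TTCCT, was found in both windows and in 56.8% of all regions. A letter match is a description and not a binding site.

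The values are log2 expression after RMA, which puts all arrays on a common distribution. Array medians over all probe sets ran from 4.34 to 4.39, and arrays of 1 group correlated at 0.989 to 0.992. The table has no detection flags, so each probe set was set against the median of its own array. A gene was tested when at least 3 of the 12 arrays lay above their medians, which kept 10613 genes. Both members passed, SPRR1A with all 12 arrays and SPRR1B through the 6 HSC-1 arrays alone. Of 10 keratinocyte markers, 6 had a named probe set, and all 6, among them KRT5, KRT14 and the desmoglein DSG3, lay above the median on all 12 arrays. Of the markers of other cell types, all 3 named endothelial genes lay below it on all 12 arrays, and so did the fibroblast gene DCN, the melanocyte genes MLANA and TYR and the leukocyte gene LYZ. LUM, listed for fibroblasts, lay above it on all 6 A431 arrays, and MITF and CD68, listed for melanocytes and leukocytes and also expressed elsewhere, on all 12. The leukocyte gene CD14 lay above it on 2 A431 arrays with everolimus and 3 with DMSO and on 0 HSC-1 arrays, and the melanocyte gene PMEL on 1 array, of A431 cells with DMSO. The part of these markers in the results was not tested.

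SPRR1A was present above the array median in all 4 groups and was highest in HSC-1 cells with DMSO. In HSC-1 cells with everolimus its log2 level was 7.24, 6.93 and 7.14 on the 3 arrays. In HSC-1 cells with DMSO it was 8.34, 8.28 and 8.23. In A431 cells it was 4.81, 4.42 and 4.89 with everolimus, against 6.07, 6.22 and 5.93 with DMSO. The groups formed an order with no overlap: HSC-1 with DMSO, HSC-1 with everolimus, A431 with DMSO and A431 with everolimus. The share of all genes tested with this whole order was not counted. Within a line, all everolimus arrays lay below all DMSO arrays for 19.6% of them in HSC-1 and 13.5% in A431 cells. The nearest arrays of neighbouring groups were 0.99, 0.71 and 1.04 apart on the log2 scale, going down that order, and the pooled SD of the same neighbours was 0.12, 0.15 and 0.20. The step between the A431 groups is the one taken as having chosen the gene. HSC-1 cells with the drug still had more SPRR1A RNA than A431 cells without it (mean levels of 7.10 ± 0.16 and 6.07 ± 0.14, SD, n = 3 each). In bulk RNA, fewer cells with a transcript and less of it per cell cannot be told apart.

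Against the array median, SPRR1A in A431 cells came close to the middle of the array after everolimus. The level minus the median was 0.46, 0.07 and 0.53 in A431 cells with everolimus, against 1.73, 1.88 and 1.58 with DMSO. One of the 3 treated A431 arrays was thus almost at its median. In HSC-1 cells the distance was 2.88, 2.57 and 2.75 with everolimus and 3.99, 3.90 and 3.88 with DMSO. SPRR1A in HSC-1 cells stayed well above the median under both treatments.

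SPRR1B followed the same order of groups at a lower position on the array. In HSC-1 cells with everolimus its log2 level was 5.67, 5.59 and 5.40. In HSC-1 cells with DMSO it was 6.29, 6.50 and 6.33. In A431 cells it was 2.64, 2.91 and 2.32 with everolimus, against 4.28, 3.94 and 3.54 with DMSO. The nearest arrays of neighbouring groups were 0.61, 1.12 and 0.62 apart, going down the same order, with pooled SDs of 0.13, 0.28 and 0.34. No neighbouring groups of SPRR1B overlapped, and the share of all genes with this order was not counted. Levels of the 2 probe sets are not comparable with each other, since probes differ in response.

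The 2 members lay on different sides of the array median in A431 cells. SPRR1B was above its array's median on each of the 6 HSC-1 arrays, by 1.01 to 1.32 with everolimus and by 1.94 to 2.12 with DMSO. It was below the median on each of the 6 arrays from A431 cells. There the level minus the median was -1.71, -1.44 and -2.04 with everolimus, against -0.06, -0.39 and -0.82 with DMSO. How far these A431 levels of SPRR1B stood from background is not known. The A431 DMSO arrays of SPRR1B were the most spread of the 8 groups of member values (SD 0.37, n = 3).

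**Figure D1:**
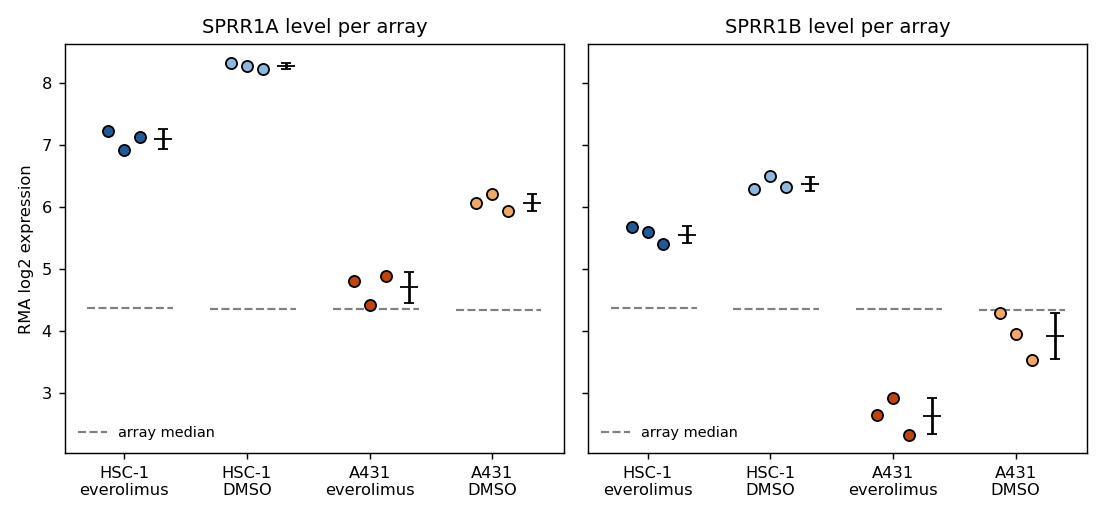
RMA log2 expression (y axis) of SPRR1A and SPRR1B on each of the 12 arrays, by line and treatment (x axis). Points are arrays, bars to their right are mean ± SD of 3 arrays, and dashed lines are the mean array median of the group. In both panels the everolimus arrays lie below the DMSO arrays of the same line and all HSC-1 arrays lie above all A431 arrays, and SPRR1B lies under the dashed line in A431 cells.

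In A431 cells both members were lower with everolimus than with DMSO, at about the same ratio. This contrast was taken as the one that chose the genes. SPRR1A averaged 4.71 ± 0.25 with everolimus and 6.07 ± 0.14 with DMSO (SD, n = 3 each), a log2 difference of -1.37 ± 0.11 (SE), or 38.8% of the DMSO level. SPRR1B averaged 2.62 ± 0.30 with everolimus and 3.92 ± 0.37 with DMSO, a difference of -1.30 ± 0.17, or 40.7% of the DMSO level. Each A431 array had SPRR1B below its median, so how well this ratio measures the RNA remaining is not known. SPRR1A lay 0.07 to 0.53 above the median on the A431 everolimus arrays, and how far that is from background is not known either. Ranked by size of fall among 10613 genes, SPRR1A was number 1 and SPRR1B number 3. KLK13, an epidermal serine protease of the kallikrein family, stood between them (-1.31 ± 0.12), and S100A7, the antimicrobial protein psoriasin, followed (-1.29 ± 0.14). The differences of the members themselves were 0.07 apart (SPRR1B minus SPRR1A), with a combined SE of 0.20. That SE treats the members as independent, though both were measured on the same arrays. All everolimus arrays lay below all DMSO arrays for both members, as they did for 13.5% of all genes tested. The summed level of the 6 keratinocyte markers over the array medians was also lower in A431 cells with everolimus (30.2 to 30.4) than with DMSO (31.4 to 31.6), and its part in the members' difference was not tested.

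In HSC-1 cells both members were also lower with everolimus. SPRR1B, whose response in this line was taken as not used to choose it, averaged 5.56 ± 0.14 with everolimus and 6.37 ± 0.11 with DMSO (SD, n = 3 each). The log2 difference was -0.82 ± 0.17 (SE), 1.76-fold lower, with a limma adjusted p of 0.00224. Over 21 alternatives this adjusted p ran from 0.000105 to 0.0146. It may not be independent of the choice, since the pair was proposed with its response to everolimus known. SPRR1A averaged 7.10 ± 0.16 with everolimus and 8.28 ± 0.05 with DMSO, a difference of -1.18 ± 0.11, or 44.2% of the DMSO level. That difference was already known when the genes were chosen and is given without a test. Among all genes, 11.3% fell and 7.34% rose in HSC-1 cells at an adjusted p of 0.05, so a call in this line is less rare than in A431 cells, where 4.33% fell and 2.39% rose. Ranked by size of fall, SPRR1A was number 13 and SPRR1B number 31. SPRR1A stood among SNAR-B1, SNAR-H and SNAR-D, small noncoding RNAs of a family of near-identical copies whose probe sets may share signal (-1.24 ± 0.08, -1.23 ± 0.08 and -1.18 ± 0.14), and the kallikrein KLK9 (-1.14 ± 0.05), the protease CTSS (-1.06 ± 0.11) and the hephaestin-like HEPHL1 (-1.05 ± 0.13). All everolimus arrays lay below all DMSO arrays for both members, as for 19.6% of all genes. The keratinocyte marker sum overlapped between HSC-1 cells with everolimus (31.4 to 31.9) and with DMSO (31.5 to 31.6). The sums of 2 other marker lists did not overlap in HSC-1 cells and were lower with everolimus, that of the 3 named leukocyte genes (1.18 to 1.67, against 2.07 to 2.16 with DMSO) and that of the 4 named melanocyte genes (-1.42 to -0.96, against -0.91 to -0.65). Both overlapped between treatments in A431 cells, and their part in the members' difference was not tested.

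The size of the everolimus difference in the 2 lines was set side by side for each member. The difference in HSC-1 cells minus that in A431 cells was 0.19 ± 0.15 (SE) for SPRR1A and 0.48 ± 0.24 for SPRR1B. These values contain the contrast taken as having chosen the genes and were not tested. The SPRR1A value was 0.044 without A431 everolimus replicate 2, 0.11 without A431 DMSO replicate 2 and 0.12 without HSC-1 everolimus replicate 1, and the SPRR1B value was 0.30 without A431 DMSO replicate 1. Over all genes, 10.5% differed between the lines in their effect. Within HSC-1 cells the fall of SPRR1B was smaller than that of SPRR1A by 0.36, with a combined SE of 0.20 that also treats the members as independent. The probe sequences are not in the files used here, so signal shared between these related transcripts was not tested.

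HSC-1 cells had more SPRR1A RNA than A431 cells. In DMSO, SPRR1A averaged 8.28 ± 0.05 in HSC-1 and 6.07 ± 0.14 in A431 cells (SD, n = 3 each), a log2 difference of 2.21 ± 0.11 (SE) or 4.62-fold higher, with a limma adjusted p of 2.36e-12. The A431 arrays in this comparison also served in the contrast taken as having chosen the gene. Of all genes, 29.2% were higher in HSC-1 cells in DMSO at the same threshold. SPRR1A ranked number 93 by size of rise. For SPRR1B the means were 6.37 ± 0.11 in HSC-1 and 3.92 ± 0.37 in A431 cells, a difference of 2.45 ± 0.17. SPRR1B entered the test only through its HSC-1 arrays, so it had to differ, and that value is a description. With everolimus in both lines, the HSC-1 minus A431 difference was 2.39 ± 0.11 for SPRR1A and 2.93 ± 0.17 for SPRR1B.

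None of the 4 other SPRR genes tested passed for everolimus in either line. SPRR2 proteins and SPRR3 are envelope precursors of the same family, and the files name probe sets for 10 of its 11 listed genes. Of the 8 besides the members, 4 were tested and 4 (SPRR2B, SPRR2D, SPRR2E and SPRR2G) stayed under the array median throughout, with a level minus the median of -2.61 to -0.88. By limma, 0 of the 4 tested genes passed in either line, and at an unadjusted p of 0.05 the count was 0 in A431 and 1, SPRR3, in HSC-1 cells. The unadjusted level was met by 19.13% of all genes in A431 and 30.03% in HSC-1 cells. At the adjusted level 4.33% fell and 2.39% rose in A431 cells, and 11.3% fell and 7.34% rose in HSC-1 cells. With 4 genes, the counts are near these shares. The median difference of the 4 tested genes was -0.08 in A431 cells, against -0.0038 over all genes, and -0.10 in HSC-1 cells, against -0.02. SPRR3, a precursor of internal stratified epithelia, had a difference of -0.30 ± 0.13 in HSC-1 (adjusted p = 0.136) and -0.15 ± 0.13 in A431 cells (adjusted p = 0.616). SPRR2F had -0.40 ± 0.20 and -0.07 ± 0.20, SPRR2A 0.10 ± 0.19 and -0.09 ± 0.19, and SPRR4 0.18 ± 0.11 and -0.07 ± 0.11, in HSC-1 and A431 cells in that order. In A431 cells with everolimus SPRR2A was above the median on 2 of 3 arrays and SPRR4 on 1 of 3. Whether SPRR1A and SPRR1B differ from the other SPRR genes in response was not tested.

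Between the lines in DMSO, SPRR3 and SPRR4 shared the direction of the members at a smaller size. SPRR3 was 0.69 ± 0.13 higher in HSC-1 than in A431 cells (adjusted p = 0.000162) and SPRR4 0.38 ± 0.11 higher (adjusted p = 0.0071). SPRR2A (-0.13 ± 0.19) and SPRR2F (0.22 ± 0.20) did not pass.

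**Figure D2:**
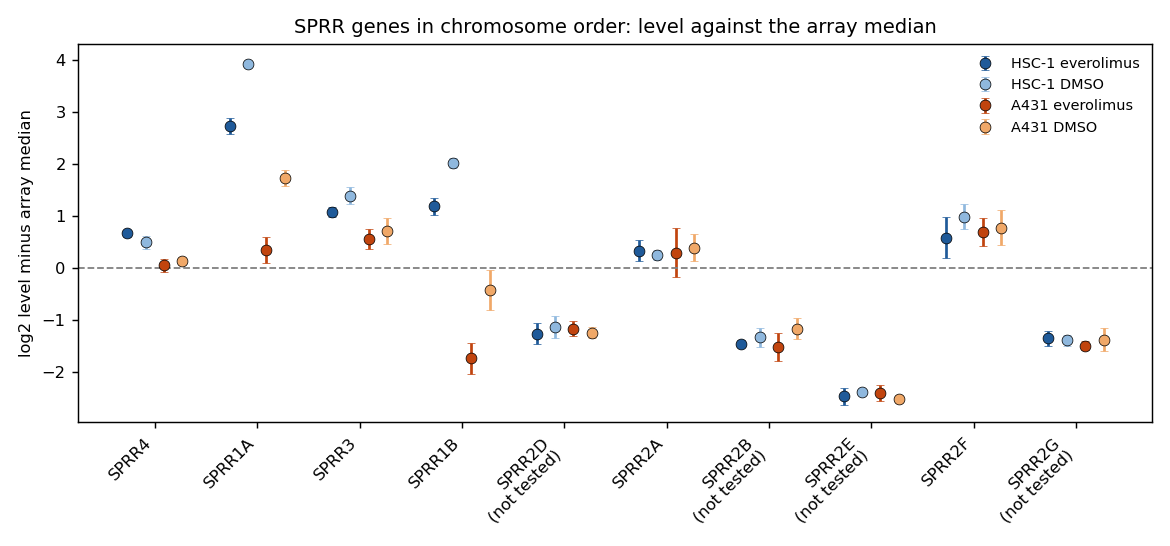
Mean log2 level minus the array median (y axis, bars are SD of 3 arrays) of the 10 SPRR genes with a named probe set, in their order along chromosome 1, by line and treatment. SPRR1A and SPRR1B spread over the 4 groups, while 4 SPRR2 genes marked as not tested lie below the median line in all groups.

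The profile over all 12 arrays nearest to SPRR1A was that of S100A7, and SPRR1B came next. Likeness was measured as the root mean square difference of log2 levels over the 12 arrays after each gene was centred on its own mean, so the points share arrays and groups. It was 0.23 for S100A7, 0.36 for SPRR1B, 0.38 for the alarmin S100A8, 0.48 for ELMO1, an adaptor in Rac activation, and 0.48 for the adhesion protein CEACAM5. For SPRR1B the nearest genes were SPRR1A (0.36), S100A7 (0.37), ELMO1 (0.40), the collagen prolyl hydroxylase P3H2 (0.41) and the collagenase MMP13 (0.49). S100A7, also of the epidermal differentiation complex, had levels of 6.40, 6.58 and 6.05 in HSC-1 cells with everolimus, against 7.74, 7.78 and 7.63 with DMSO, and 3.72, 3.72 and 4.24 in A431 cells with everolimus, against 5.18, 5.17 and 5.20 with DMSO. Its groups kept the order of the members and did not overlap, and the share of all genes that do so was not counted. In A431 cells with everolimus S100A7 lay below the array median on all 3 arrays. CEACAM5 and P3H2 differ from the members in HSC-1 cells, where their everolimus differences were -0.13 and -0.0021, and MMP13 in A431 cells, where it was -0.02. ELMO1 had a smaller difference than the members in A431 cells, of -0.35, and one of -0.73 in HSC-1 cells. Its mean levels in A431 cells, 3.24 with everolimus and 3.58 with DMSO, lay below the array medians.

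**Figure D3:**
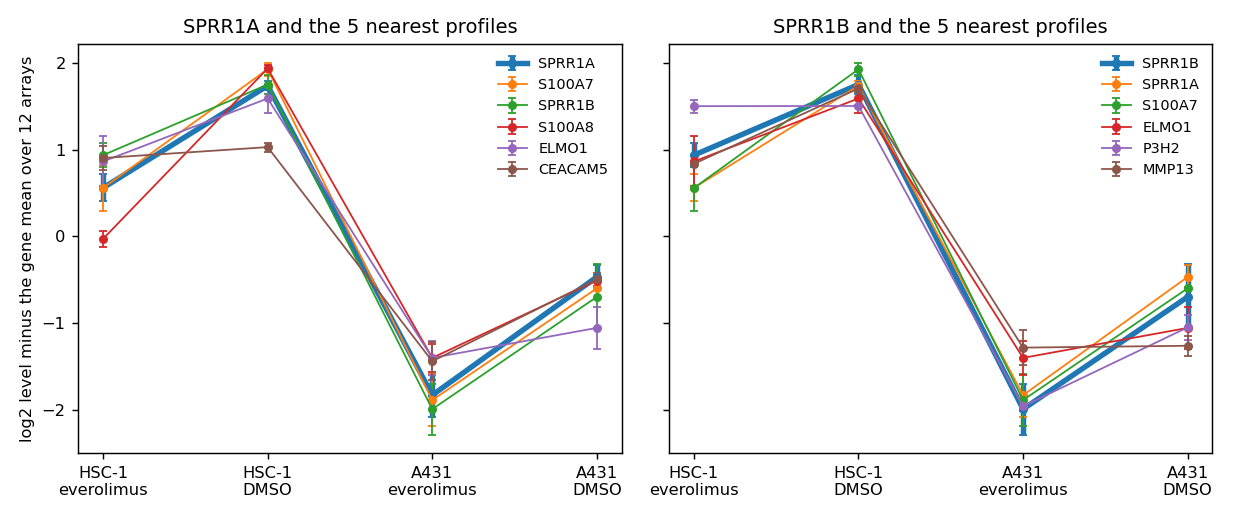
Log2 level minus the gene's mean over 12 arrays (y axis, group mean with SD of 3 arrays) for each member, drawn thick, and its 5 nearest genes, by line and treatment; lines only join the groups of 1 gene. S100A7 runs closest to SPRR1A, and P3H2 shows almost no step between HSC-1 everolimus and HSC-1 DMSO.

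None of the 10 other listed precursors of the epidermal differentiation complex that were tested passed for everolimus in either line. At an adjusted p of 0.05, 4.33% of all genes fell and 2.39% rose in A431 cells, and 11.3% fell and 7.34% rose in HSC-1 cells. Of 29 listed genes besides the SPRR genes, 10 were tested, and by limma 0 passed in either line, with 0 in A431 and 2 in HSC-1 cells at an unadjusted p of 0.05, a level met by 19.13% of all genes in A431 and 30.03% in HSC-1 cells. The 2 were the late cornified envelope genes LCE2A (0.28 ± 0.12) and LCE3B (0.32 ± 0.14), with differences opposite in sign to those of the members. With 10 genes, counts this small were not read as a result about the list. Involucrin (IVL), an early scaffold of the envelope, differed by -0.18 in HSC-1 (adjusted p = 0.346) and -0.17 in A431 cells (adjusted p = 0.499). Loricrin (LORICRIN), its bulk component in epidermis, differed by 0.02 and -0.16 and lay close to the array median. The transglutaminase TGM5 was below the filter, and TGM1, TGM2 and TGM3 are not analysed here.

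Among envelope proteins encoded elsewhere, 2 protease inhibitors fell in both lines, and the effect on 3 scaffold genes differed between the lines. Of 9 tested, 3 fell (SLPI, CSTA and ANXA1) and 2 rose (PPL and DSP) in HSC-1 cells, and 5 fell (SLPI, CSTA, PPL, DSP and SCEL) and 0 rose in A431 cells. Among all genes, 11.3% fell and 7.34% rose in HSC-1 cells, and 4.33% fell and 2.39% rose in A431 cells. The ANXA1 call was absent in 11 of 21 alternatives, and the DSP call in 2 of 21 in each line. SLPI, a cross-linked protease inhibitor, fell by 0.61 ± 0.04 in HSC-1 (adjusted p = 1.81e-08) and fell by 0.52 ± 0.04 in A431 cells (adjusted p = 5.87e-07). The cysteine protease inhibitor CSTA fell by 0.35 ± 0.06 in HSC-1 (adjusted p = 0.000711) and fell by 0.36 ± 0.06 in A431 cells (adjusted p = 0.00147). Periplakin (PPL), which links the envelope to keratin filaments, rose by 0.33 ± 0.05 in HSC-1 and fell by 0.28 ± 0.05 in A431 cells (interaction 0.61, adjusted p = 2.14e-05). Sciellin (SCEL) fell by 0.74 ± 0.07 in A431 cells and had 0.03 ± 0.07 in HSC-1 cells (interaction 0.77, adjusted p = 0.000121). Desmoplakin (DSP) was the third, with an interaction of 0.31 (adjusted p = 0.000662).

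**Figure D4:**
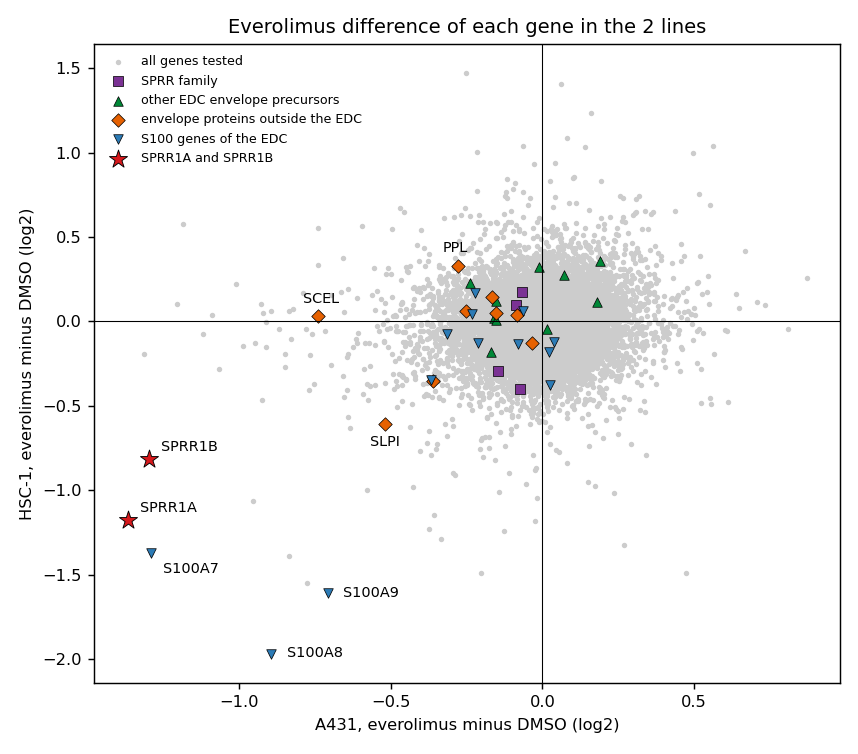
Everolimus minus DMSO difference in log2 expression in A431 (x axis) and HSC-1 cells (y axis) for 10613 genes tested (grey) and 4 listed groups. SPRR1A and SPRR1B (stars) lie at the lower left beside S100A7, and the other SPRR genes lie within the cloud around 0.

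AP-1 is a dimer of Fos and Jun family proteins, and its motif stands upstream of both members, as it does for 6.57% of all regions, and not in the window of S100A7. Whether AP-1 takes part in the members' response was not tested. Of 9 AP-1 and Maf genes tested, 2 fell and 0 rose in HSC-1 cells, and by limma 0 passed in A431 cells (2 at an unadjusted p of 0.05). Among all genes, 11.3% fell and 7.34% rose in HSC-1 cells. In A431 cells 19.13% of all genes met the unadjusted level, and the count of 2 is near that share. FOSL1, which encodes Fra-1, had levels of 6.95, 7.30 and 7.05 in HSC-1 cells with everolimus, against 8.14, 8.06 and 8.02 with DMSO, a difference of -0.97 ± 0.08 (adjusted p = 6.25e-08). In A431 cells FOSL1 differed by 0.17 ± 0.08 (adjusted p = 0.214), and the effects differed between the lines (adjusted p = 2.01e-06). JUN fell by 0.29 ± 0.09 in HSC-1 cells (adjusted p = 0.0317), a call lost without HSC-1 everolimus replicate 2 (0.194), HSC-1 DMSO replicate 1 (0.0971) or 3 (0.0963) and in a fit with no intensity trend (0.0577), over alternatives that began at 0.0124. The epithelial factor GRHL1 fell by 0.51 ± 0.12 in HSC-1 (adjusted p = 0.00639) and fell by 0.48 ± 0.12 in A431 cells (adjusted p = 0.0224). The A431 call was lost without A431 everolimus replicate 1 (0.082) or 3 (0.0648), A431 DMSO replicate 1 (0.078) or 2 (0.0778) and in a fit with no intensity trend (0.0597), over alternatives that began at 0.00307. EHF, an ETS family factor of epithelia, fell by 0.28 ± 0.05 in HSC-1 cells and had -0.13 ± 0.05 in A431 cells (adjusted p = 0.138).

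The remaining lists held genes that share the gene cluster or the differentiation stage of the members. Of 13 S100 genes tested, 7 fell and 0 rose in HSC-1 cells, where 11.3% of all genes fell, and 5 fell and 0 rose in A431 cells, where 4.33% did. In HSC-1 cells the calls of S100A14, S100A11 and S100A3 were absent in 11, 5 and 4 of 21 alternatives, and in A431 cells that of S100A14 in 1 of 21. S100A7 fell by 1.37 ± 0.14 in HSC-1 (adjusted p = 1.22e-06) and fell by 1.29 ± 0.14 in A431 cells (adjusted p = 6.35e-06), the 2 values nearest to those of SPRR1A among these genes. S100A8 and S100A9, which form the antimicrobial dimer calprotectin, fell by 1.97 ± 0.08 and fell by 1.61 ± 0.08 in HSC-1 cells, and fell by 0.89 ± 0.08 and fell by 0.71 ± 0.08 in A431 cells. Of 8 suprabasal keratins tested, 0 fell and 2 rose in HSC-1 cells, and 2 fell and 0 rose in A431 cells, KRT4 and KRT13 in each case. Beside these and the following counts, 11.3% of all genes fell and 7.34% rose in HSC-1 cells, and 4.33% and 2.39% in A431 cells. The KRT4 call in HSC-1 cells was absent in 6 of 21 alternatives. Of 5 enzymes of the lipid envelope, 0 fell and 1 rose in HSC-1 cells (UGCG, absent in 15 of 21 alternatives), and 1 fell (CERS3) and 0 rose in A431 cells. Of 15 differentiation transcription factors and receptors, 3 fell (GRHL1, EHF and ETS1) and 3 rose (GRHL2, NOTCH1 and NOTCH2) in HSC-1 cells, and 2 fell (GRHL1 and NOTCH3) and 1 rose (NOTCH1) in A431 cells. The ETS1 and NOTCH2 calls in HSC-1 cells were absent in 5 and 8 of 21 alternatives, and that of NOTCH1 in A431 cells in 3 of 21.

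Over all 9 lists together, 15 of 73 tested genes fell and 8 rose in HSC-1 cells, and 15 fell and 1 rose in A431 cells. Over all genes 11.3% fell and 7.34% rose in HSC-1 cells, and 4.33% fell and 2.39% rose in A431 cells, so the counts of rises are near the shares over all genes. The median difference was -0.0032 in HSC-1 cells, against -0.02 over all genes, and -0.13 in A431 cells, against -0.0038. Without HSC-1 everolimus replicate 2, 9 listed genes fell in HSC-1 cells. The lists were drawn up with earlier results of these data known.

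**Figure D5:**
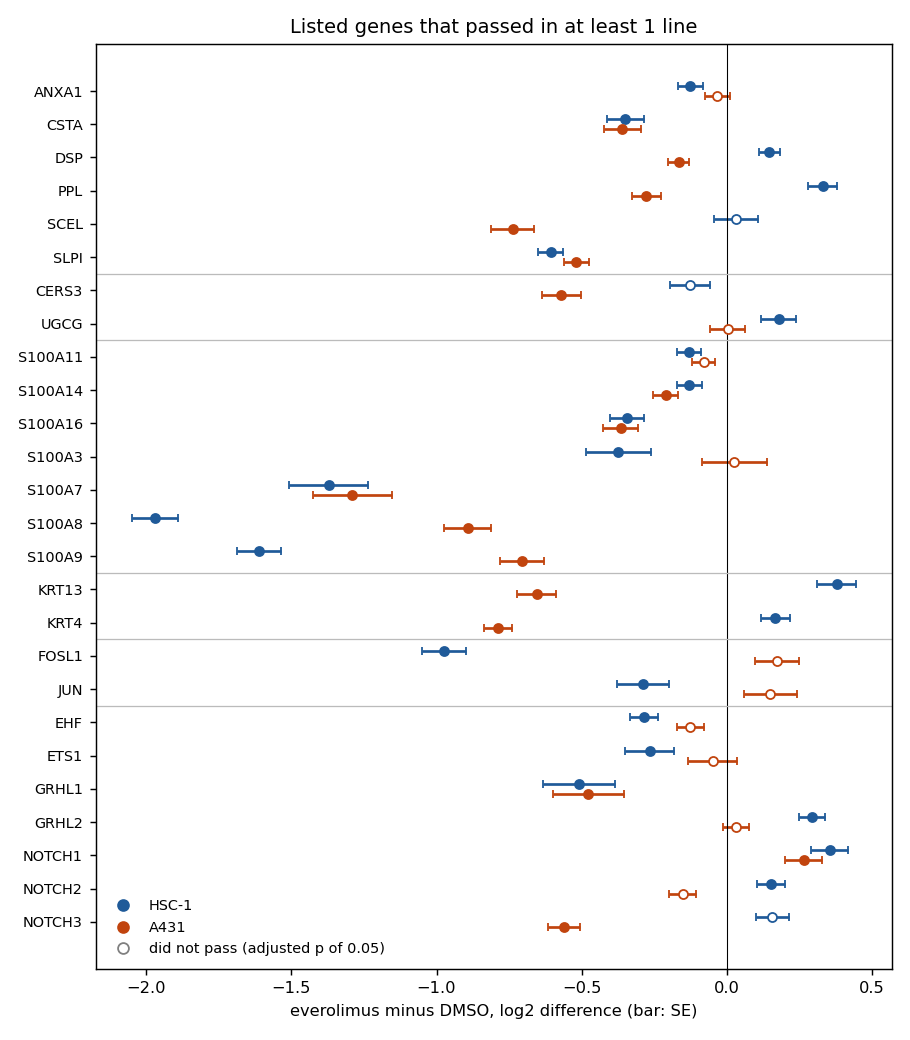
Everolimus minus DMSO difference in log2 expression with its SE (x axis) for listed genes that passed in at least 1 line (y axis), HSC-1 above A431 for each gene; open points did not pass at an adjusted p of 0.05. Grey lines separate envelope proteins, lipid envelope enzymes, S100 genes, suprabasal keratins, AP-1 subunits and transcription factors, from top to bottom. S100A7, SLPI and CSTA lie left of 0 in both lines, while PPL, KRT4 and KRT13 lie right of 0 in HSC-1 and left of it in A431 cells.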

How the data were processed

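Each deposited value is a log2 expression level. The submitters' processing notes name RMA and Expression Console as the authors' tools. No version, summary level or build is given in the sources used here. Per the labels' protocols, total RNA was labelled with GeneChip whole-transcript kits. Of 53617 probe sets, 16098 had 1 gene symbol, 0 had several and 37519 are unnamed here. All 16098 matched the GRCh38.p14 gene table by Entrez identifier. For the 779 genes with several probe sets, that with the highest mean was used. A model of group means was fitted to all 12 arrays (lmFit, limma 3.58.1, R 4.3.3). Variances were moderated by eBayes with trend, leaving 8 residual degrees of freedom, and p-values were adjusted over 10613 genes by the method of Benjamini and Hochberg. The procedure was run on simulated data with known added differences, independent noise and a common mean of each gene in all groups. Such data cannot show whether the spread between replicates here is technical. The contrasts were everolimus minus DMSO in each line, the difference of these effects and HSC-1 minus A431 in DMSO, called at an adjusted p of 0.05. Precision is limited by how few arrays there are.

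The members, the 9 gene lists and the motifs were chosen with earlier results of these data known. Named genes are the members, the tested SPRR genes, the genes ranked next to SPRR1A, the 5 nearest in profile, and up to 4 changed genes per list and line, of which some are given only as counts. Alternatives were a replicate block, no or a stricter level filter (60th percentile), other variance priors, repeated quantile normalization, median centring, a fit to only the compared arrays, averaged probe sets and leaving out each array. These were also applied to single listed genes, a step added after seeing the data.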

Additional observations from a re-analysis of the deposited data

Results flagged for a closer look

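The effect of everolimus differed between the lines, by the limma interaction at an adjusted p of 0.05, for 14 of the 73 listed genes tested, against 10.5% of all genes. Each value is the log2 difference in HSC-1 cells minus that in A431 cells. Neither member is among them, since their interaction was not tested. The envelope scaffold genes PPL (0.61), DSP (0.31) and SCEL (0.77) and the ceramide synthase CERS3 (0.44) had positive values. So did the suprabasal keratins KRT4 (0.96), KRT13 (1.03) and KRT80 (0.26). KRT13 had levels of 8.85, 8.83 and 9.15 in HSC-1 cells with everolimus, against 8.58, 8.66 and 8.47 with DMSO, and 9.16, 9.21 and 9.19 in A431 cells with everolimus, against 9.88, 9.87 and 9.78 with DMSO. The S100 alarmins S100A8 (-1.08) and S100A9 (-0.91) and the AP-1 genes FOSL1 (-1.15) and JUN (-0.44) had negative values. Among transcription factors and receptors, GRHL2 (0.26), NOTCH2 (0.30) and NOTCH3 (0.72) were positive. KRT80 did not pass in a fit with no intensity trend (adjusted p = 0.0912) or without A431 everolimus replicate 2 (0.0548), A431 DMSO replicate 1 (0.0615) or HSC-1 DMSO replicate 3 (0.0551), and its lowest adjusted p was 0.00597. GRHL2 did not pass with no trend (0.0706), and its lowest adjusted p was 0.00472. JUN did not pass in 8 of 20 alternatives, namely with no trend (0.067) and when HSC-1 everolimus replicate 2 (0.092), HSC-1 DMSO replicate 1 (0.0748) or 3 (0.0737), A431 everolimus replicate 1 (0.0783) or 3 (0.0649), or A431 DMSO replicate 1 (0.0774) or 2 (0.0725) was left out. Its lowest adjusted p was 0.0141.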

How the results depend on the processing

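All 48 recomputed group levels of SPRR1A and SPRR1B moved by no more than 1 SD, and all 166 recomputed member differences kept their sign and, where tested, their side of the threshold. Many of these outcomes were fixed in advance. Leaving out 1 array of a group cannot move its mean by 1 SD, and averaging probe sets left the members unchanged. Since the groups did not overlap, leaving out 1 array could not reverse a difference between groups. Filter, trend, variance prior, block and compared-arrays settings change the p-values but not the differences. Leaving out 1 array gave -1.25 to -1.09 for SPRR1A and -0.87 to -0.74 for SPRR1B in HSC-1 cells, and -1.46 to -1.22 and -1.49 to -1.12 in A431 cells. Genes changed in A431 cells numbered 714, with 438 without the intensity trend and 452 to 838 with 1 array left out (452 without A431 DMSO replicate 1 and 453 without A431 DMSO replicate 2). Listed genes that fell in HSC-1 cells numbered 9 to 15 with 1 array left out. The replicate numbers did not pair the arrays: deviations of same-numbered arrays correlated at -0.11 to -0.0070 in HSC-1 and at -0.14 to 0.01 in A431 cells. With the replicate block the SPRR1B difference in HSC-1 cells stayed at -0.82 (limma adjusted p = 0.000955), and 621 genes changed in A431 and 1845, against 1977, in HSC-1 cells. In the cases named the cause was not tested. The distance of both members from background in A431 cells is not known, because the table has no detection flags.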
